A study of Mus musculus with 12 samples.

Results

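Cell cycle genes were read by phase in pieces of the mouse embryonic cerebral hemisphere. The 44 genes were taken by symbol from a list of cyclins and their kinases, S phase enzymes, mitosis genes and cyclin-dependent kinase inhibitors, without the MCM family. The rule names genes and no measured value, but it was drawn up with earlier results of these data known. Of the 44, 41 had a probe set that the array annotation pairs with that gene alone, 58 probe sets in all. Ccnb1 and Bub1b had none, and the 2 probe sets of Tyms carry a second symbol, so Tyms was not read. The filter on low values kept 34 of the 41 genes, among 4562 genes tested in all. Cdk2, E2f1, Cdc6, Pola2, Lig1, Bub1 and Kif11 did not pass it, and their highest value on any array was 1813. The 34 were 5 genes of G1 (Cdk4, Ccnd1, Ccnd2, Ccnd3 and Ccne1), 10 of S phase, 15 of G2 and mitosis, and 4 inhibitors. Ccnd3 and Aurka passed the filter only through the medial arrays, and Rfc1 only through 1 medial and 1 rostral array. The 34 are therefore not a sample of the 44, and counts over them are descriptions.

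A dividing cell commits to a new round in G1, when D-type cyclins with Cdk4 and E-type cyclins with Cdk2 release E2F factors. It copies its DNA in S phase with enzymes for nucleotide supply and for the replication fork, and then builds and checks the spindle under Cdk1 with A- and B-type cyclins. Inhibitors of the Cip/Kip and Ink4 families hold the kinases back, often as a cell leaves the cycle. In the embryonic cortex, divisions take place among radial glia of the ventricular zone and among intermediate progenitors, while postmitotic neurons collect outside them.

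The tissue was the cerebral hemisphere of mouse embryos at E16.5 (embryonic day), and the labels give no strain, sex or treatment. It was cut into medial, dorsal, ventral, rostral and occipital pieces, and the whole hemisphere was a sixth group. Each group had 2 arrays, called array 1 and array 2 here after the numbers in the titles, and the labels say that the dissections were independent but not how many embryos each held. The protocol lists a lateral piece and no rostral one, and the names of the titles are kept here. Values are average differences, the mean signal of matching minus mismatching probes, which can be negative. They were set to a floor of 693.5 before taking log2.

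Each array had 39.1% to 41.7% of its probe sets above 1387, which is 2 times the floor. Within each group the correlation of both arrays across tested probe sets was 0.901 to 0.962 (Pearson r). For 10 of the 12 arrays, the nearest array of another group carried the same number. The exceptions were rostral array 2 and occipital array 1, nearest to each other (r = 0.963), so results that use these pieces are also given without them. Of 11 neuron markers and 11 radial glia markers with a probe set, 10 and 9 passed the filter. Nefm, Vim and Hes5 did not.

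Genes of G2 and mitosis were lowest in the ventral and highest in the medial piece, and S phase genes were ordered alike with smaller differences. The level of a phase on an array is given here as the median, over its tested genes, of the log2 value minus that gene's mean over the 12 arrays. For G2 and mitosis it was -0.863 on either ventral array and 0.657 and 0.641 on the medial arrays. It lay between -0.157 and 0.303 on the other 8 arrays, so neither the ventral nor the medial arrays overlapped with the rest. For S phase it was -0.555 and -0.540 on the ventral and 0.452 and 0.389 on the medial arrays, against -0.086 to 0.291 elsewhere. The G1 genes were also lowest on the ventral arrays (-0.452 and -0.341). Their medial values of 0.276 and 0.526 overlapped with rostral array 2 (0.468) and occipital array 1 (0.369). The 4 inhibitors showed no such order and stayed between -0.233 and 0.193. Over all 4562 genes the same median lay between -0.015 and 0.029.

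**Figure D1:**
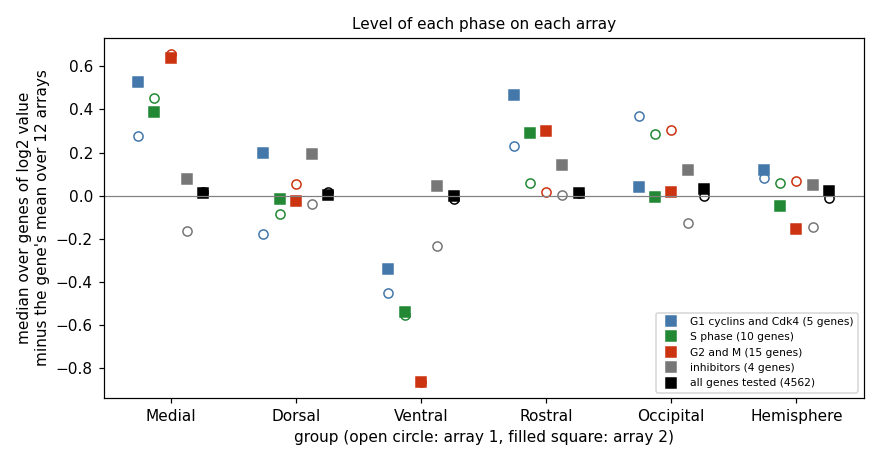
The level of each phase on each of the 12 arrays, as the median over its tested genes of the log2 value minus the gene's mean over the arrays. Open circles are array 1 and filled squares array 2; for G2 and mitosis the ventral arrays coincide at -0.863 and the medial arrays are at 0.657 and 0.641.

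The ventral mean was the lowest of the 5 region means for 15 of 15 genes of G2 and mitosis, 10 of 10 of S phase, 3 of 5 of G1 and 2 of 4 inhibitors. Over all genes tested the ventral mean was lowest for 34.7%. The medial mean was highest for 14 of 15, 8 of 10, 2 of 5 and 1 of 4, against 27.7% of all genes. For Aurka and Ccnd3, counted there, the filter fixed this, since only their medial arrays passed it. Differences between phases were not tested as such.

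Against the other 4 regions, 16 of the 34 genes fell in the ventral piece, where 5.74% of all tested genes fell, and 1 rose (4.34% of all). The 16 were 12 of 15 genes of G2 and mitosis, 3 of 10 of S phase (Rrm1, Rrm2 and Prim2) and Cdk4. The gene that rose was the inhibitor Cdkn1a. The median log2 difference was -1.13 in G2 and mitosis, -0.65 in S phase, -0.58 in G1 and -0.11 among inhibitors, beside -0.02 over all genes. Both ventral arrays lay below all 8 arrays of the other pieces for 23 of the 34 genes, 13 of 15, 7 of 10, 2 of 5 and 1 of 4 by phase, and for 14.2% of all genes. On the arrays numbered 1 and on those numbered 2 the median over the 34 was -0.88 and -0.82. The count of 16 was 5 without ventral array 1, 9 without ventral array 2 and 15 without the rostral and occipital arrays. Cdk1, Rrm1, Ckap2, Cdc20 and Cdc25c kept their calls whichever single array was left out. The count without the rostral and occipital arrays is for ventral against the medial and dorsal pieces alone. Without Ccnd3, Aurka and Rfc1, which passed the filter through so few arrays, 15 of 31 fell and the median was -0.93. With the array number as a block in the fit, 22 of the 34 fell. In tissue pieces, fewer dividing cells and less RNA per cell cannot be told apart.

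The medial piece differed the other way. Against the other 4 regions, 6 of the 34 genes rose there (Cdk1, Ccnb2, Cdc20, Cdc25c, Ckap2 and Rrm1) and 0 fell by limma, while 0.658% of all genes rose. At an unadjusted p under 0.05, 18 were higher and 2 lower, where 14.5% of all genes differed in either direction. The median log2 difference was 0.76 in G2 and mitosis, 0.54 in S phase, 0.55 in G1 and 0.07 among inhibitors. The ventral piece is among the other 4 regions, so its low values enter each medial difference. In the same way the medial values enter each ventral difference. For Rrm1 the mean log2 value was 12.18 in the medial, 11.65 in the dorsal, 11.80 in the rostral, 11.87 in the occipital and 10.03 in the ventral piece. Both medial arrays lay above all 8 arrays of the other pieces for 12 of the 34 genes, 9 of them of G2 and mitosis, and for 5.22% of all genes. Aurka and Ccnd3, among these 12, were tested only because their medial arrays passed the filter, which fixed this order for them. Without them and Rfc1, 6 of 31 genes rose against the other 4 regions. The 2 numbers gave medians of 0.56 and 0.57 over the 34. The count of 6 was 0 without either medial array, 1 without either dorsal array, either ventral array or occipital array 2, and 2 without rostral array 1 or occipital array 1. Without both the rostral and the occipital arrays, so against the dorsal and ventral pieces alone, it was 12, Ccnd3 and Aurka among them. With the array number as a block in the fit it was 10, which again held both.

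Set directly against the ventral piece, the medial piece was higher for 20 of the 34 genes and lower for Cdkn1a, where 6.4% of all genes were higher in the medial piece. The 20 were 12 of 15 genes of G2 and mitosis, 6 of 10 of S phase (Rrm1, Rrm2, Tk1, Pcna, Prim2 and Fen1), Cdk4 and Ccnd3. Aurka and Ccnd3, among the 20, were tested only because their medial arrays passed the filter, and without them and Rfc1 the medial piece was higher for 18 of 31. This comparison uses the same ventral and medial arrays as those above. With the array number as a block in the fit, 23 of the 34 were higher in the medial piece. Medial to ventral folds ran up to 5.98 for Cdk1 (adjusted p = 0.000289). The count was 10 and 12 without medial array 1 and 2, 9 and 10 without ventral array 1 and 2, and 17 without the rostral and occipital arrays. A test over the 5 regions together passed 10 of the 34 genes, 7 of G2 and mitosis, 2 of S phase and Cdkn1a, against 3.42% of all genes. That count was 16 without the rostral and occipital arrays, in a test over the medial, dorsal and ventral pieces alone. It was 1 without either ventral array, 4 without either medial array and 5 without either dorsal array.

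**Figure D2:**
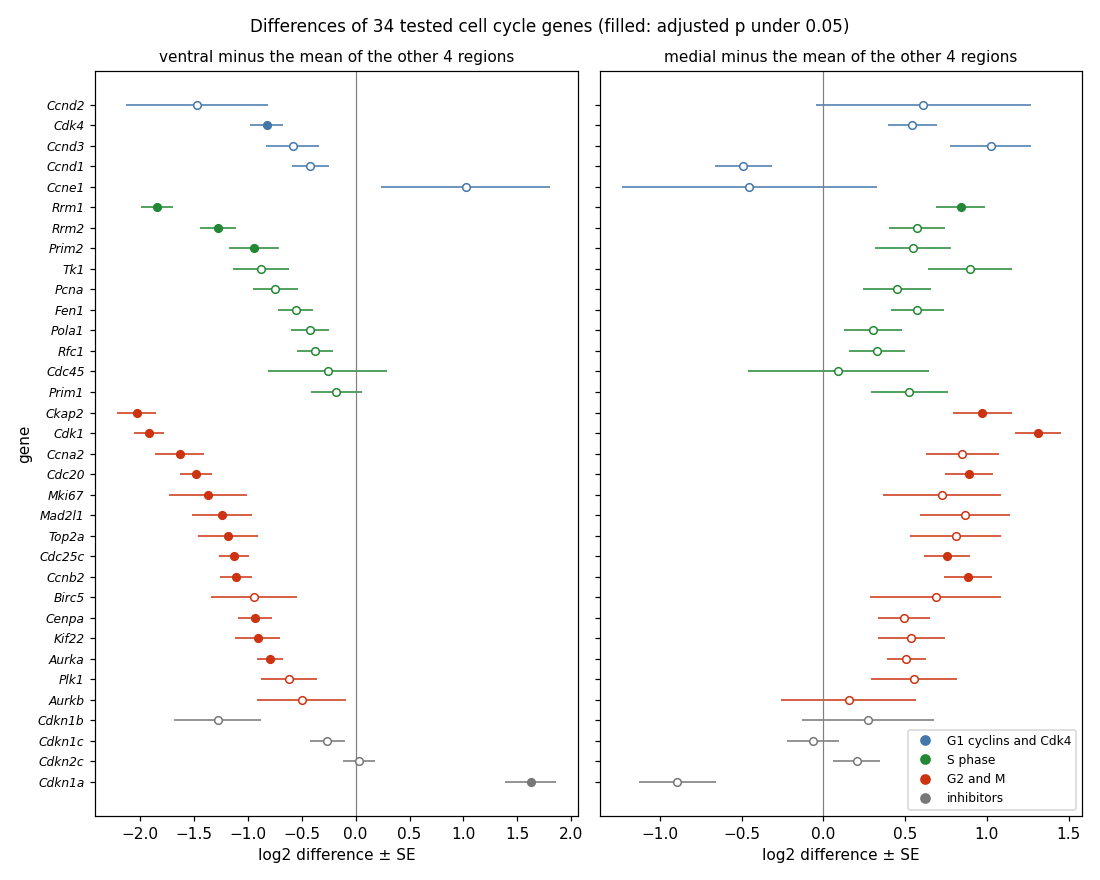
Log2 difference with its standard error (SE) for each of the 34 tested genes, ventral on the left and medial on the right, each minus the mean of the other 4 regions; filled points have an adjusted p under 0.05. On the left 16 genes are filled below 0 and Cdkn1a above it, and on the right 6 are filled above 0.

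Among the genes of G2 and mitosis, Cdk1, the kinase that drives entry into mitosis, read 7510.1 and 6115 in the medial, 3485 and 3630.2 in the dorsal, 1074 and 1197 in the ventral, 3349 and 3659 in the rostral and 4344 and 3541 in the occipital piece, and 3074 and 3228 in the whole hemisphere. The ventral arrays were below every other array and the medial arrays stood above all others. It was 3.76-fold lower (log2 -1.91 ± 0.14 SE, adjusted p = 0.000502) in the ventral piece and 2.48-fold higher in the medial piece (adjusted p = 0.00694).

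Of the cyclins that partner it, Ccnb2, a B-type cyclin, read 8752 and 8939 in the medial, 5692 and 5125 in the dorsal, 2931 and 2930.2 in the ventral, 4987 and 6552 in the rostral and 6407 and 5268 in the occipital piece, and 5827 and 6797 in the whole hemisphere. Its ventral arrays were lowest and its medial arrays highest. With all arrays Ccnb2 was 2.15-fold lower (log2 -1.11 ± 0.15 SE, adjusted p = 0.00317) in the ventral and 1.85-fold higher in the medial piece (adjusted p = 0.0326). Without ventral array 1 its ventral call was lost (adjusted p = 0.0527). Ccna2, the A-type cyclin of S phase and G2, read 6076 and 7219 in the medial, 4358 and 4342 in the dorsal, 1274 and 2202 in the ventral, 4119.7 and 5202 in the rostral and 5214 and 5590.3 in the occipital piece, and 3909.8 and 5706 in the whole hemisphere. It fell in the ventral piece (-1.63 ± 0.22 SE, adjusted p = 0.00349), and its medial level, 1.8-fold above the others, did not pass (adjusted p = 0.119), although both medial arrays were its highest.

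Cdc20, which activates the ubiquitin ligase that ends mitosis, read 7652 and 6692 in the medial, 4486 and 4789.7 in the dorsal, 2039 and 1815 in the ventral, 4267 and 5243 in the rostral and 5382 and 5143 in the occipital piece, and 4046 and 5240.5 in the whole hemisphere. The 2 ventral arrays were below and the 2 medial arrays above the other 8. Cdc20 was 2.79-fold lower (log2 -1.48 ± 0.15 SE, adjusted p = 0.00104) in the ventral piece and 1.85-fold higher in the medial piece (adjusted p = 0.0317). Ckap2, a microtubule protein of the mitotic spindle, read 3782 and 3546 in the medial, 2629 and 2052 in the dorsal, 654 and 229 in the ventral, 2754 and 2935 in the rostral and 3048 and 2299 in the occipital piece, and 3760.2 and 2580.1 in the whole hemisphere. Both ventral arrays were under the floor, and hemisphere array 1 reached the medial level. It was lower by at least 4.08 times (-2.03 ± 0.18 SE on the log2 scale, adjusted p = 0.000652) in the ventral and 1.96-fold higher in the medial piece (adjusted p = 0.0437). Cdc25c, the phosphatase that switches Cdk1 on, read 1971 and 1970.3 in the medial, 1329.9 and 1193 in the dorsal, 432 and 637 in the ventral, 1294 and 1657 in the rostral and 1547 and 1358 in the occipital piece, and 1183 and 1026 in the whole hemisphere. Its ventral arrays were under the floor as well, and it was lower by at least 2.18 times (-1.13 ± 0.14 SE on the log2 scale, adjusted p = 0.00221) there. In the medial piece it was 1.69-fold higher (adjusted p = 0.0435). Its probe set is of a kind that can match several transcripts.

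**Figure D3:**
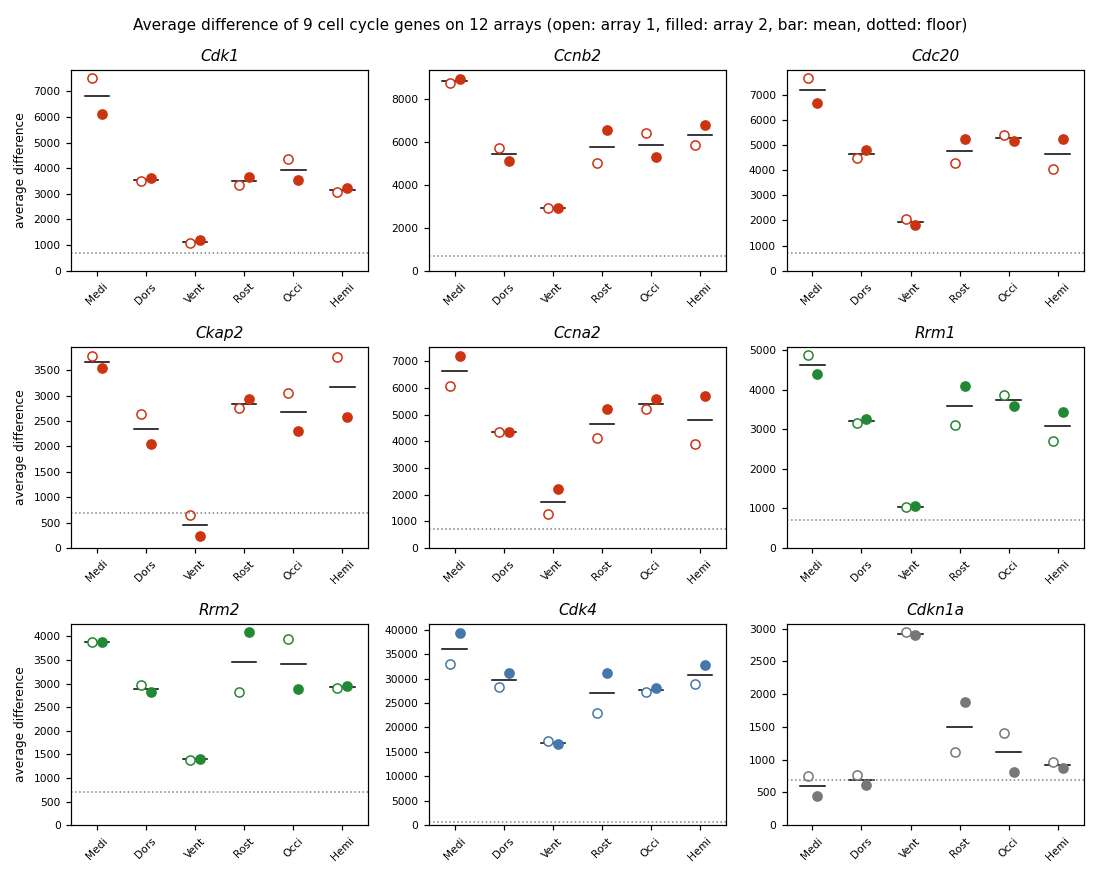
Average difference of 9 cell cycle genes on the 12 arrays, by group (medial, dorsal, ventral, rostral, occipital, hemisphere), with open points for array 1, filled points for array 2, a bar for their mean and a dotted line at the floor of 693.5. For Cdk1, Ccnb2, Cdc20, Ckap2, Ccna2, Rrm1, Rrm2 and Cdk4 the ventral arrays are the lowest, and for Cdkn1a the highest.

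The other 6 genes of G2 and mitosis that fell in the ventral piece had smaller differences or a wider spread. Aurka, a kinase of the centrosome and spindle, read 1433 and 1418 in the medial, 1079 and 1095 in the dorsal, 369 and 346 in the ventral, 1066 and 1267 in the rostral and 1189.8 and 1118 in the occipital piece, and 981 and 947 in the whole hemisphere. Its ventral arrays were under the floor, and the ventral difference was -0.79 ± 0.12 SE, adjusted p = 0.00457. That difference depends on the floor, from -1.75 with a floor of 346.8 to -0.01 with a floor of 1387. Aurka was tested only because its medial arrays passed the filter, which fixed them as its highest. Cenpa, the histone of the centromere, read 3142 and 2715 in the medial, 2048 and 2224 in the dorsal, 1322 and 1329.9 in the ventral, 2159.7 and 2931 in the rostral and 2689 and 2531 in the occipital piece, and 2561 and 1942 in the whole hemisphere. The ventral arrays were the lowest (-0.93 ± 0.16 SE, adjusted p = 0.00926), and rostral array 2 lay between the medial arrays.

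Mad2l1, of the spindle checkpoint, read 3726 and 3416 in the medial, 2136 and 2356 in the dorsal, 1013 and 1217 in the ventral, 2433 and 2661 in the rostral and 3405 and 1559.7 in the occipital piece, and 3026 and 1932 in the whole hemisphere. The ventral arrays were the lowest (-1.24 ± 0.27 SE, adjusted p = 0.0237), while the occipital arrays differed widely. Top2a, which untangles sister chromatids, read 2108 and 2088 in the medial, 1290.4 and 1223 in the dorsal, 10.1 and 206 in the ventral, 1452 and 1928 in the rostral and 2080.4 and 944 in the occipital piece, and 1083 and 644 in the whole hemisphere. Both ventral arrays were under the floor (-1.19 ± 0.28 SE, adjusted p = 0.03), and hemisphere array 2 was too. The difference depends on the floor, from -2.19 with a floor of 346.8 to -0.29 with a floor of 1387.

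Mki67, the proliferation antigen, read 2863 and 2719.8 in the medial, 2281 and 1589.8 in the dorsal, 1098 and 418 in the ventral, 2393 and 2360.3 in the rostral and 2985 and 1399.8 in the occipital piece, and 2189.7 and 949 in the whole hemisphere. Array 2 was below array 1 in all 6 groups, and hemisphere array 2 was below ventral array 1. The ventral difference was -1.37 ± 0.36 SE, adjusted p = 0.0462. Kif22, a motor that binds chromosomes, read 5733 and 4055 in the medial, 3831 and 3206 in the dorsal, 1743 and 2691 in the ventral, 3728 and 4453 in the rostral and 4135 and 3719.9 in the occipital piece, and 4764 and 3787 in the whole hemisphere. The ventral arrays were the lowest but unlike each other (-0.90 ± 0.21 SE, adjusted p = 0.0275). Mki67 and Kif22 lost the ventral call without the rostral and occipital arrays.

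Birc5, Plk1 and Aurkb did not pass in any comparison on the probe sets read here. With the array number as a block in the fit, Plk1 passed in the ventral piece and in medial against ventral. Birc5 (survivin) and Aurkb belong to the chromosomal passenger complex. Birc5 read 394 and 429.5 on the ventral arrays, below the 536 to 2423 of the other regions, but its other arrays were widely spread (-0.94 ± 0.40 SE, adjusted p = 0.196). Aurkb was under the floor on 7 of 12 arrays. The mitotic kinase Plk1 had 3 tested probe sets that disagreed. The one read here differed by -0.61 ± 0.26 SE, adjusted p = 0.202 in the ventral piece, the next, of a kind that can match a sequence family, by 0.12, and the last, also of that kind, by -0.94 with a call (adjusted p = 0.0372).

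Promoter sequence is shown for 4 of the 6 genes that fell in the ventral and rose in the medial piece, 3 of G2 and mitosis and 1 of S phase, chosen after their values were seen. Promoters of G2 and mitosis genes are known for a cell cycle homology region (CHR) near the start with CCAAT boxes before it. The 250 bases before the annotated start (RefSeq, GRCm38.p6) were searched on both strands for TTTGAA (CHR), CCAAT, and the E2F motifs TTCCCGC and TTGGCGC. Of the 34 tested genes, 27 had a promoter entry, and where a gene has several the first was used. Matches are in capitals, on either strand.

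Cdk1: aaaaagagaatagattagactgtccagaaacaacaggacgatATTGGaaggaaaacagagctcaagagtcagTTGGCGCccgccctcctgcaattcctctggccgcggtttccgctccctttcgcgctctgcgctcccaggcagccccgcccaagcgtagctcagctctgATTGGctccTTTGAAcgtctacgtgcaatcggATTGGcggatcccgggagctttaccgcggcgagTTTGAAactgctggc
Ccnb2: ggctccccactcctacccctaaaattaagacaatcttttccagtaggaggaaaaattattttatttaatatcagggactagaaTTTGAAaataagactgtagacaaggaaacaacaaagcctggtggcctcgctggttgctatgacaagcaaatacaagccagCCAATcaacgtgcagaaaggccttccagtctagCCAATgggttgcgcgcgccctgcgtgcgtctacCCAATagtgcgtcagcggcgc
Cdc20: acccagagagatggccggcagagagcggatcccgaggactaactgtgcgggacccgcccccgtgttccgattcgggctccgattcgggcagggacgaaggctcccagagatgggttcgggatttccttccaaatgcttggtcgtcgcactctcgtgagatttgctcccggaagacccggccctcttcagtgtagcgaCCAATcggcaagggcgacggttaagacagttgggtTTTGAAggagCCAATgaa
Rrm1: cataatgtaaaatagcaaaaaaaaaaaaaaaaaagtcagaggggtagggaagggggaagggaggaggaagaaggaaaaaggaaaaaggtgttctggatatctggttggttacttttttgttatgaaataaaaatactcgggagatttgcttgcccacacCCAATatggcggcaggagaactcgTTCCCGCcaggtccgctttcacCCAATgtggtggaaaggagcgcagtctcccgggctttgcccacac

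These stretches lie at chr10:69352913-69353162, minus strand, at chr9:70421555-70421804, minus strand, at chr4:118437344-118437593, minus strand, and at chr7:102441445-102441694, plus strand, in that order. No matches overlap in these 4. Cdk1 holds 2 CHR matches (65 and 9 bases before the start), 3 CCAAT matches and 1 E2F match. Ccnb2 holds 1 CHR match, 161 bases before the start, and 3 CCAAT matches, all nearer the start than the CHR match. Cdc20 holds 1 CHR match, 12 bases before the start, and 2 CCAAT matches. Rrm1, an S phase gene, holds 2 CCAAT matches and 1 E2F match and no TTTGAA in this window. Among 12 tested genes of G2 and mitosis with an entry, 7 held a CHR match (Cdk1, Ccnb2, Cdc20, Ckap2, Kif22, Mki67 and Top2a), against 16.3% of 27025 genes with an entry. All 7 of these also held a CCAAT match, in any order, a combination in 5.73% of all genes. In Ccnb2 and Ckap2 every CCAAT match in the window lay nearer the start than the CHR match, the reverse of the known arrangement. Bases after the start were not searched, so a CHR there would be missed, and whether these TTTGAA matches act as one was not tested. In all, 10 of the 12 held CCAAT (34.5% of all) and 2, Cdk1 and Mki67, an E2F match. In S phase, 2 of 9 held a CHR match, 7 of 9 CCAAT and 3 of 9 an E2F match (5.71% of all). Of the 3 G1 genes with an entry 0 held any of the motifs. Of the 3 inhibitors with an entry, Cdkn1b held CCAAT, Cdkn2c an E2F match, and 0 a CHR match. Aurka and Cenpa, which also fell in the ventral piece, held CCAAT and no TTTGAA, and Mad2l1 held none of the motifs. A match is a description of these letters, and the arrays do not measure binding.

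Among the S phase genes, both subunits of ribonucleotide reductase, which makes the building blocks of DNA, fell in the ventral piece. Rrm1, the large subunit of ribonucleotide reductase, read 4874 and 4388 in the medial, 3149 and 3269 in the dorsal, 1027 and 1065 in the ventral, 3107 and 4091 in the rostral and 3873 and 3592 in the occipital piece, and 2709 and 3434 in the whole hemisphere. Its ventral arrays were far below the other 10 and its medial arrays the highest. Rrm1 was 3.58-fold lower (log2 -1.84 ± 0.15 SE, adjusted p = 0.000508) in the ventral and 1.79-fold higher in the medial piece (adjusted p = 0.0375). Rrm2, the small subunit, read 3878 and 3874 in the medial, 2975 and 2814 in the dorsal, 1390.0 and 1398 in the ventral, 2831 and 4092 in the rostral and 3951 and 2875 in the occipital piece, and 2905 and 2957 in the whole hemisphere. Its ventral arrays were again the lowest, but rostral array 2 and occipital array 1 were as high as the medial arrays. Rrm2 was 2.42-fold lower (log2 -1.27 ± 0.17 SE, adjusted p = 0.00316) in the ventral piece and did not pass in the medial piece (adjusted p = 0.157). Thymidine kinase (Tk1) read 1675 and 2056 in the medial, 999 and 822 in the dorsal, 348 and -10.3 in the ventral, 824 and 1405 in the rostral and 1863 and 1132 in the occipital piece, and 1465 and 1012 in the whole hemisphere. Both ventral arrays were under the floor. It missed the threshold in the ventral piece (-0.88 ± 0.26 SE, adjusted p = 0.0698) and passed in medial against ventral (1.42 ± 0.33 SE, adjusted p = 0.0247).

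Among genes of the replication fork, 1 fell in the ventral piece. Prim2, the large subunit of primase, read 1654 and 1516 in the medial, 1392 and 1492 in the dorsal, 593 and 538 in the ventral, 1533 and 825 in the rostral and 1238 and 1209 in the occipital piece, and 1741 and 1144 in the whole hemisphere. Both ventral arrays were under the floor (-0.94 ± 0.23 SE, adjusted p = 0.035), and with a floor of 1387 the difference was -0.08. Prim1, the small subunit, differed by -0.18 ± 0.23 SE, adjusted p = 0.715. Pcna, the sliding clamp, read 15839 and 13380.5 in the medial, 12702 and 11289 in the dorsal, 8499 and 6642 in the ventral, 12475 and 13114 in the rostral and 14158 and 8826 in the occipital piece, and 11735 and 8463 in the whole hemisphere. Fen1, the flap endonuclease of lagging strand synthesis, read 2999 and 2339 in the medial, 1740.0 and 1907 in the dorsal, 1331 and 1503 in the ventral, 1842 and 2558 in the rostral and 1851 and 1719 in the occipital piece, and 1941 and 1974 in the whole hemisphere. For Pcna and Fen1 the ventral arrays were the lowest of the region arrays. Both passed in medial against ventral (log2 0.95 ± 0.26 SE, adjusted p = 0.0499 for Pcna, and 0.91 ± 0.20 SE, adjusted p = 0.0231 for Fen1) and missed the threshold in ventral against the other regions (adjusted p = 0.0581 and adjusted p = 0.0651). Pola1, the catalytic subunit of polymerase alpha, and Rfc1, of the clamp loader, differed by -0.42 and -0.38 in the ventral piece without passing. Cdc45, of the replicative helicase, was under the floor on 6 of 12 arrays, and its array 2 was above its array 1 in all 6 groups.

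In G1, Cdk4, the kinase partner of the D-type cyclins, read 33025 and 39267 in the medial, 28213 and 31266 in the dorsal, 17133 and 16574 in the ventral, 23045 and 31125 in the rostral and 27337 and 28015 in the occipital piece, and 28842 and 32817 in the whole hemisphere. The ventral arrays were the lowest and the medial arrays the highest of the region arrays. It was 1.77-fold lower (log2 -0.82 ± 0.15 SE, adjusted p = 0.0109) in the ventral piece and did not pass in the medial piece (adjusted p = 0.131). Its second probe set gave a larger ventral difference, -1.42 (adjusted p = 0.00147). Of the 3 D-type cyclins 0 passed against the other 4 regions by limma, and Ccnd1 and Ccnd3 had an unadjusted p under 0.05 in the ventral and in the medial piece. With the array number as a block in the fit, Ccnd2 and Ccnd3 passed in the ventral and Ccnd3 in the medial piece. Ccnd1 read 1726 and 1892 in the medial and 1914 and 1849.9 in the ventral piece, and 2429 to 3502 on the dorsal, rostral and occipital arrays. All medial and ventral values lay below those 6 arrays, but no comparison of it passed (medial -0.49 ± 0.17 SE, adjusted p = 0.236). A second probe set of Ccnd1, with no call either, read 1068 and 1073 in the dorsal piece, below 1204 and 1464 in the ventral piece, the opposite order. Ccnd2 read 3681 and 7623 in the medial, 1364 and 6217 in the dorsal, 898 and 3114 in the ventral, 3963 and 8453 in the rostral and 4726 and 5552 in the occipital piece, and 2042 and 4830.3 in the whole hemisphere. Array 2 was above array 1 in all 6 groups, and its ventral difference of -1.47 ± 0.66 SE, adjusted p = 0.225 did not pass. Taken within each number, that difference was -1.79 on arrays 1 and -1.14 on arrays 2. Ccnd3 read 1782 and 1602 in the medial, 838 and 539 in the dorsal, 33.7 and -41.6 in the ventral, 1374 and 854 in the rostral and 1004 and 168 in the occipital piece, and 1175 and -457 in the whole hemisphere. It was tested only because its medial arrays passed the filter, so its medial to ventral difference (1.28 ± 0.31 SE, adjusted p = 0.0317, with both ventral arrays under the floor) is a description. The call was lost in 10 of 20 alternatives. Cyclin E1 (Ccne1) had pairs as far apart as 3049 and 881 in the medial and 620.0 and 3596 in the dorsal piece, and no comparison of it passed.

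Among the inhibitors, Cdkn1a ran opposite to the mitosis genes. Cdkn1a, a target of p53 that blocks cyclin-dependent kinases, read 757 and 450.2 in the medial, 758 and 606 in the dorsal, 2946 and 2899 in the ventral, 1111 and 1884 in the rostral and 1413 and 815 in the occipital piece, and 958 and 872 in the whole hemisphere. Its ventral arrays agreed and stood above all others, and its medial arrays lay about the floor. It was 3.08-fold higher in the ventral piece (1.62 ± 0.24 SE, adjusted p = 0.00428) and lower in the medial than in the ventral piece (-2.01 ± 0.30 SE, adjusted p = 0.00405). A second, dimmer probe set differed by 1.18 without passing (adjusted p = 0.146), with 3467 and 1047 on the ventral arrays. Cdkn1b, a brake on G1 kinases, read 515 and 734 in the ventral piece against 898 to 3141, and did not pass (-1.28 ± 0.40 SE, adjusted p = 0.0878). Its second probe set did (-1.34, adjusted p = 0.0453). Cdkn1c, known for cell cycle exit in the embryonic cortex, ran from 10216 to 18514 over the 12 arrays, and Cdkn2c, an inhibitor of Cdk4, from 2408 to 3335. Their ventral differences were -0.26 ± 0.16 SE, adjusted p = 0.388 and 0.03 ± 0.15 SE, adjusted p = 0.928.

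Further cell cycle genes outside the 44 were taken from 3 lists by phase. In the ventral piece 15 of 27 tested genes of G2 and mitosis fell, 5 of 20 of S phase and 5 of 12 G1 regulators, and 0 rose by limma. Of all tested genes 5.74% fell there and 4.34% rose. At an unadjusted p under 0.05, 20, 9 and 8 genes of the lists were lower there and 1, a G1 regulator, was higher. By that measure 23.7% of all genes differed in either direction. The median differences of the 3 lists were -0.94, -0.32 and -0.57. In G2 and mitosis the largest falls were those of Cks2, a subunit of Cdk complexes (1267 and 862 on the ventral arrays, 7658 and 4334 on the medial arrays, adjusted p = 0.0105 for the ventral piece), the chromatin protein Hmgb2 (-1.81 ± 0.18 SE, adjusted p = 0.00106) and the spindle protein Nusap1 (-1.63 ± 0.22 SE, adjusted p = 0.00322). In S phase they were Rfc4 of the clamp loader (-1.51 ± 0.22 SE, adjusted p = 0.00398), Uhrf1, which maintains DNA methylation (-1.42 ± 0.16 SE, adjusted p = 0.00159), and Pold1, of polymerase delta (-1.23 ± 0.15 SE, adjusted p = 0.00195). Among G1 regulators they were Gas1 (-2.01 ± 0.16 SE, adjusted p = 0.000508), a surface protein, Tob1 (-0.73 ± 0.19 SE, adjusted p = 0.0484), an antiproliferative factor, and Ccng2 (-0.69 ± 0.17 SE, adjusted p = 0.0362). Tob1, Gas1 and Ccng2 are known from arrest rather than from entry into the cycle. In the medial piece 2 of 27 (Hmgb2 and Nde1), 1 of 20 (Pold1) and 1 of 12 (Gas1) rose and 0 fell by limma (0 also at an unadjusted p under 0.05), with medians of 0.56, 0.38 and 0.33. Of all tested genes 0.658% rose there. At an unadjusted p under 0.05, 17, 7 and 4 genes of the lists were higher, where 14.5% of all genes differed in either direction.

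Intermediate progenitor markers differed in the ventral piece too, and neuron and radial glia markers in part. All 4 intermediate progenitor markers (Eomes, Neurog2, Insm1 and Gadd45g) fell in the ventral piece, with a median of -2.79, where 5.74% of all genes fell. Whether these 4 mark the intermediate progenitors of every region alike was not tested. Of 9 tested radial glia markers 3 fell (Tead2, Sox3 and Prom1), while the radial glia genes Fabp7 and Sox2 differed by 0.13 and -0.10 without passing. Of 10 tested neuron markers, 6 rose there (Gap43, Snap25, Eno2, Syt1, Syp and Nefl), where 4.34% of all genes rose. The neuron markers Tubb3, Map2, Dcx and Stmn2 differed by 0.08, -0.02, 0.15 and 0.31 without passing. The summed level (negative values taken as 0) of the 4 intermediate progenitor markers was 1801 to 3075 on the ventral arrays and 13162 to 34412 on the other region arrays. That of 11 neuron markers with a probe set was 277277 to 284096 on the ventral arrays against 175129 to 250148. That of 11 radial glia markers was 82580 to 85022 on the ventral arrays and 78190 to 102697 elsewhere, an overlap. Fabp7 alone made up 54953 and 53285 of the ventral radial glia sums. The median over the 9 tested radial glia markers, taken as for the phases, did not overlap. It was -0.465 and -0.461 on the ventral and -0.173 to 0.507 on the other region arrays. Eomes and Neurog2 were under the floor on both ventral arrays. On the medial arrays the intermediate progenitor sum was 25740.0 to 34412, against 1801 to 25377 on the other region arrays, the radial glia sum 100618 to 102697 against 78190.0 to 100655, and the neuron sum 175129 to 207453 against 212641 to 284096. In the medial piece Eomes, Gadd45g and the radial glia gene Hopx rose and the neuron gene Syt1 fell. The endothelial genes Cdh5, Flt1, Pecam1 and Tek and the microglia genes C1qb, Tyrobp, Fcer1g and Aif1 did not pass the filter. Of 2 erythroid, 2 endothelial, 3 microglia and 2 ganglionic eminence markers tested, 0 passed in either piece by limma. At an unadjusted p under 0.05 this count was 0 apart from the 2 ganglionic eminence markers, which were lower in the medial piece. The summed level ran from 73499 to 88283 on the ventral and 72228 to 83186 on the other region arrays for erythroid markers, from 8657 to 8955 and 7561 to 11140.0 for endothelial markers, and from 6529 to 7813 and 4661 to 6905 for microglia markers. For ganglionic eminence markers it was 12122 to 12922 and 5786 to 25842. The 2 tested, of 7 listed, were Dlx1 and Dlx2. Dlx1 read 9380 and 8457 in the ventral, 4600 and 3737 in the medial, 4991 and 4424 in the dorsal, 8830 and 15155 in the rostral and 16988 and 7554 in the occipital piece. Of 3 tested markers of meninges and choroid plexus 0 passed in the ventral or medial piece by limma, 1 in each at an unadjusted p under 0.05, with sums of 6191 to 8100.0 and 5730.0 to 14974. In medial against ventral, the choroid plexus gene Ttr was higher (2.18 ± 0.53 SE, adjusted p = 0.0314), as were 4 of 4 intermediate progenitor and 6 of 9 radial glia markers, and 6 of 10 neuron markers were lower. Ttr read 2151 and 4564 in the medial and 329 and 84.2 in the ventral piece. Actin signal from probes near the start of the transcript, over that from its end, a sign of RNA length, was 0.665 on ventral array 1, below the 0.706 to 0.831 of the other region arrays of that number, and 0.856 on ventral array 2, within their 0.840 to 0.887. The part of these markers and of RNA length in the cell cycle differences was not tested.

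The dorsal piece and the whole hemisphere lay between the extremes. In the dorsal piece 0 of the 34 genes passed by limma against the other 4 regions (0.285% of all genes did), 1 at an unadjusted p under 0.05 (6.95% of all genes), and the median difference was 0.03. That gene was Cdkn1a, at -0.89 ± 0.24 SE, adjusted p = 0.272. It passed without the rostral and occipital arrays, so against the medial and ventral pieces alone. In the hemisphere against the mean of the 5 pieces, 0 of the 34 passed by limma (0% of all genes), 2 at an unadjusted p under 0.05 (4.49% of all genes), with a median of -0.02. Those 2 were Ckap2 (log2 0.54 ± 0.18 SE) and Top2a (-0.63 ± 0.27 SE), which went opposite ways.

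Rostral against occipital gave unlike answers on the 2 pairs of arrays. By limma 0 of the 34 genes passed (0% of all genes), and 0 at an unadjusted p under 0.05, where 1.07% of all genes did. On arrays 1 the rostral value was above the occipital value for 7 of the 34 genes, with a median log2 difference of -0.26. On arrays 2 it was above for 27, with a median of 0.30. The sign was opposite on the 2 pairs for 29 of the 34 genes, 13 of 15 in G2 and mitosis, 8 of 10 in S phase, 4 of 5 in G1 and 4 of 4 inhibitors, and for 59.4% of all genes. For the inhibitors the order was turned, with rostral above occipital for 3 of 4 on arrays 1 and for 1 of 4 on arrays 2. Top2a, for example, read 1452 and 1928 in the rostral and 2080.4 and 944 in the occipital piece, and Rrm2 read 2831 and 4092 in the rostral and 3951 and 2875 in the occipital piece. In both, rostral array 2 and occipital array 1 were high and the other 2 arrays lower, so the means of these pieces average unlike arrays.

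**Figure D4:**
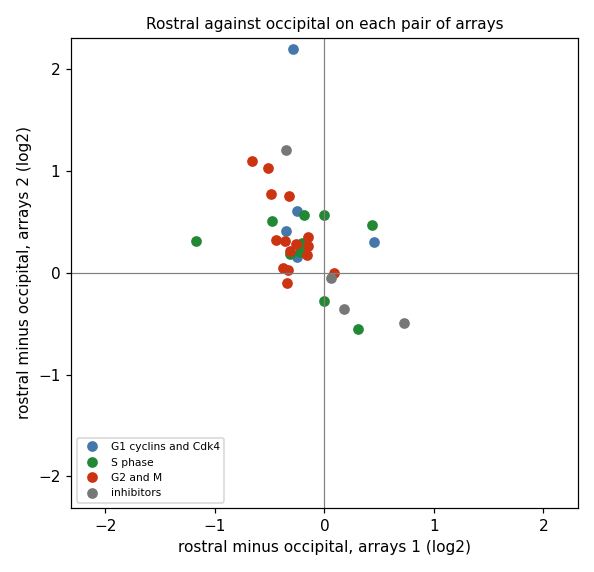
Rostral minus occipital log2 difference of the 34 genes on arrays 1 (horizontal axis) and on arrays 2 (vertical axis), coloured by phase. Most points lie in the upper left area, and 29 of 34 genes have opposite signs on the 2 pairs.

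Few of these genes followed the array number in every group. Array 2 was above array 1 in all 6 groups for Ccnd2, Cdc45 and Cdkn1b, with median log2 differences of 1.17, 1.29 and 0.75, and below it in all 6 for Mki67 (-0.59). These 4 of 34 compare with 24.7% of all genes. For Cdk1, Ccnb2, Cdc20, Rrm1 and Rrm2 the median difference between the numbers was 0.07 or less in size.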

How the data were processed

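RNA of 5 pieces of the embryonic mouse hemisphere and of the whole hemisphere was measured on 12 Affymetrix mouse arrays. The deposited intensity per probe set is the average difference, per the labels' protocols, which speak of poly(A)+ RNA (the molecule label says total RNA), arrays scanned 2 times and repeats from independent dissections. The software is not given in the sources used here. The deposited values had a common 2% trimmed mean (2501.6 to 2501.9), so no further scaling was applied. Anything lower than 693.5, computed as the root mean square of negative values, was raised to it. The 5832 of 12422 probe sets above 1387 on at least 2 arrays were tested in limma 3.58.1 (R 4.3.3), in a single fit with a mean per group, 6 residual and 2.86 prior degrees of freedom. p-values are two-sided and adjusted (Benjamini-Hochberg) over the 5832. A called gene has an adjusted p under 0.05. A gene is read on its tested probe set with the highest mean. Symbols are those of the array annotation, with 10833 probe sets of 1 symbol, 396 of several and 1193 unnamed; a RefSeq table changed 0. Folds come from floored log2 means, "at least" where both lower arrays are at the floor. The members and lists were chosen with earlier results of these data known. By the rule for named genes, all members are accounted for and array values are given for those called, with up to 3 called genes of each other cell cycle list, those that differed most. Only 2 arrays a group limit every value. Alternatives were other floors and filters, quantile normalization, trended robust variances, a replicate block, other probe sets, and arrays left out.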

Additional observations from a re-analysis of the deposited data

How the results depend on the processing

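Directions held: under every alternative run, 0 of the called genes in ventral, medial or medial against ventral changed sign. Of 17 genes called in the ventral piece 5 kept the call whichever single array was left out, of 6 in the medial piece 0 and of 21 in medial against ventral 10. Leaving out each array in turn gave 5 to 17 genes lower in the ventral piece (16 with all arrays), 0 to 6 higher in the medial piece (6), 9 to 21 higher in medial than in ventral (20) and 1 to 11 over the 5 regions (10). A floor of 1387 left 10 genes lower in the ventral piece. Without the filter 2 were higher in the medial piece (Cdk1 and Aurka, of which Cdk1 was called before) and 11 in medial against ventral. Without the rostral and occipital arrays 16 passed over the regions, 12 rose in the medial piece and 1 (Cdkn1a) passed in the dorsal piece. Those comparisons are among the medial, dorsal and ventral pieces alone, so they are not the same comparisons with fewer arrays. The numbers of the arrays were not taken as pairs, since the labels do not say that a number marks a shared litter. Yet the deviations of same-numbered arrays correlated above 0.1 in 14 of 15 pairs of groups, up to 0.562 (-0.06 for rostral and occipital). The counts without a block ignore this shared part. With the number as a replicate block, 10 genes rose in the medial piece, including all 6 called without it, and 22 fell in the ventral piece. The block added calls for Cdk4, Ccnd3, Ccna2 and Aurka in the medial piece, and for Ccnd2, Ccnd3, Pcna, Fen1, Plk1 and Cdkn1b in the ventral piece. The other alternatives kept each count within 1.5 times. Genes under the floor in the ventral piece have smallest sizes only.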
